A study of Neurospora crassa with 12 samples.

Results

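The genes examined were 10 genes of G protein and cyclic AMP signalling in *Neurospora crassa*, followed across the RNA-seq libraries of a study of the transcription factor PAC-3 and inorganic phosphate (Pi). They were chosen by gene ID from the deposited count tables, 10 of 9730 genes, and all 10 carry the intended symbol in the annotation. They are the Gα subunit genes *gna-1* (NCU06493), *gna-2* (NCU06729) and *gna-3* (NCU05206), the Gβ and Gγ genes *gnb-1* (NCU00440) and *gng-1* (NCU00041), and *ric8* (NCU02788). The others are the receptor genes *gpr-1* (NCU00786) and *gpr-4* (NCU06312), the adenylyl cyclase gene *cr-1* (NCU08377) and *pkac-1* (NCU06240), which encodes a catalytic subunit of protein kinase A.

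Heterotrimeric G proteins carry signals from receptors in the plasma membrane. An active receptor makes the Gα subunit exchange GDP for GTP, Gα separates from the Gβγ dimer, and both parts act on effectors such as adenylyl cyclase. Cyclic AMP made by the cyclase releases the catalytic subunit of protein kinase A from its regulatory subunit. In *N. crassa* this pathway is known for its part in hyphal growth, asexual sporulation, carbon sensing and female fertility, and RIC8 acts there as a receptor-independent exchange factor for Gα proteins.

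The study compared a Δ*pac-3* strain, in which the *pac-3* coding region was replaced by the bar gene in a *mus-52* knockout background, with Δ*mus-52* as its control. Conidial cultures were 5 days old for the control and 10 days old for Δ*pac-3*. The conidia germinated for 5 h in low-Pi (10 µM) or high-Pi (10 mM) medium, which held 44 mM sucrose and 50 mM citrate, at pH 5.4 and 30°C. Each of the 4 groups had 3 biological replicates, named I, II and III. Culture age therefore differed between the strains, and its effect and that of the deletion cannot be told apart.

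The 12 libraries held between 20240314 and 82211503 counts. In the libraries labelled Δ*pac-3*, *pac-3* was at 130 to 182 CPM (read counts scaled to library size with TMM factors), against 355 to 518 CPM in those labelled Δ*mus-52*. The former still held 3000 to 12710 counts of *pac-3* each, although its coding region is described as replaced. Counts per gene do not show where in the gene these reads lie. The gene *mus-52* had 487 to 1344 counts in the libraries labelled Δ*mus-52* and 0 to 36 in those labelled Δ*pac-3*, which goes against the label of the control. The 36 counts were in Δ*pac-3* high-Pi III (1.03 CPM), and every other library labelled Δ*pac-3* had at most 9. The labels are used as strain names throughout, and *mus-52* differed between the strains as well as *pac-3*. Correlations of log2 CPM between replicates were 0.987 to 0.992 in 3 groups and 0.965 to 0.979 in Δ*pac-3* high-Pi. The tissue is labelled mycelium, and all 7 genes of a conidial marker list (*con-6*, *con-8*, *con-10*, *con-13*, *eas*, *fl* and *ccg-1*) had counts in every library. Their summed level was 195 to 242 CPM in Δ*mus-52* low-Pi, 78.9 to 85.7 CPM in Δ*mus-52* high-Pi, 176 to 532 CPM in Δ*pac-3* low-Pi and 170 to 321 CPM in Δ*pac-3* high-Pi. The gene with the largest share of the sum was *ccg-1* in every library labelled Δ*mus-52* and in Δ*pac-3* high-Pi I, and *eas* in the other libraries labelled Δ*pac-3*, so the sums do not compare the same genes. In such bulk samples fewer cells of a type and less RNA per cell cannot be told apart.

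**Figure D1:**
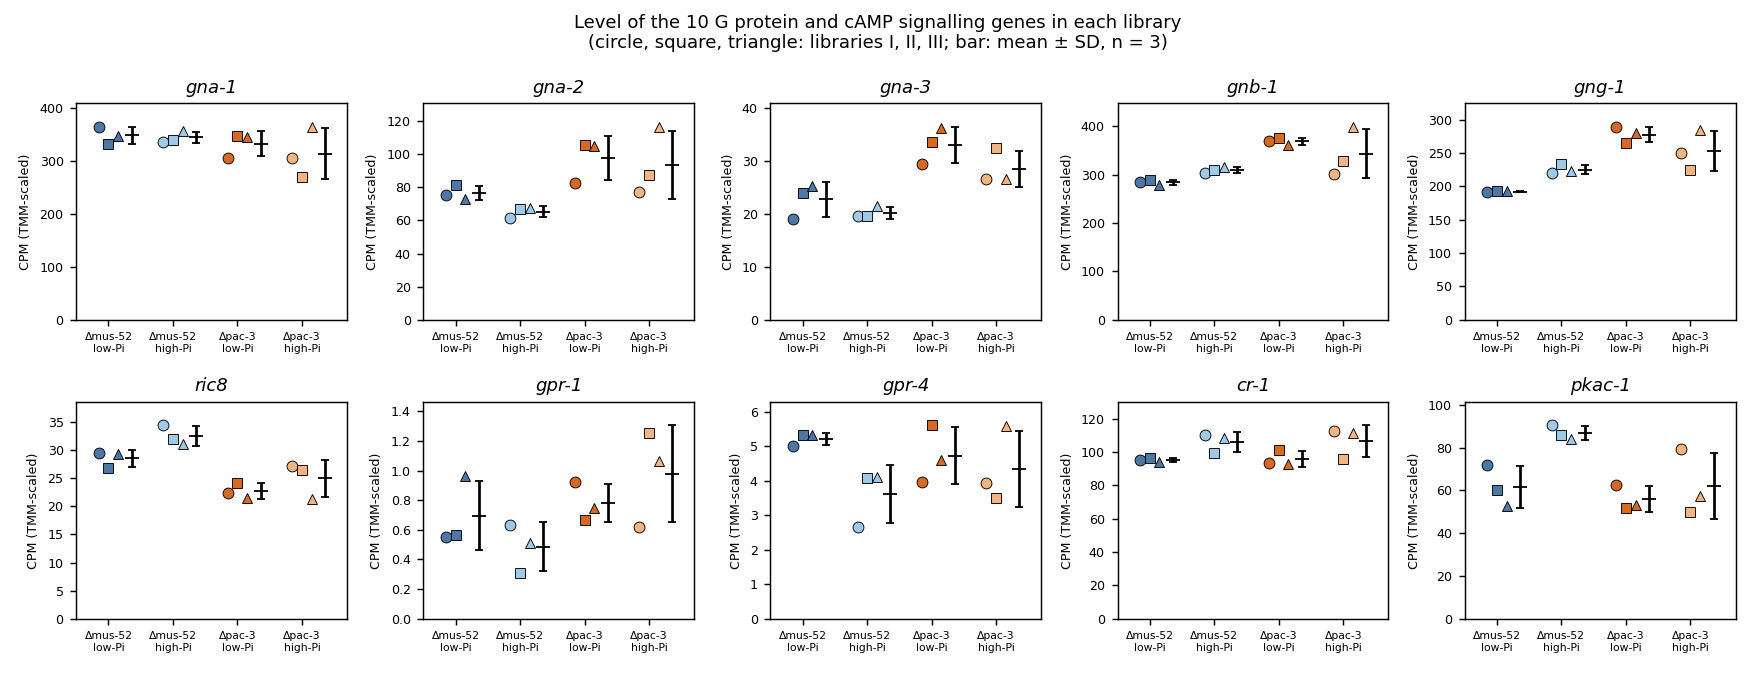
Level of each of the 10 genes (vertical axes, TMM-scaled CPM, starting at 0) in the 12 libraries, by group (horizontal axes). Symbols mark libraries I, II and III and bars the mean ± SD (n = 3). *gna-3* was at 26.6 CPM or more in every library labelled Δ*pac-3* and at 25.3 CPM or less in every library labelled Δ*mus-52*, while the groups of *gna-1* and *cr-1* overlapped between the strains.

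In low-Pi, transcripts of the Gβγ dimer and of *gna-2* and *gna-3* were higher in the libraries labelled Δ*pac-3*, by 1.28- to 1.46-fold, and that of *ric8* was 1.25-fold lower. No difference passed for *gna-1*, the receptors, adenylyl cyclase or *pkac-1*. In all, 4 of the 10 genes rose and 1 fell at a Benjamini-Hochberg adjusted p below 0.05 in edgeR's quasi-likelihood test of the 6 libraries. Of all 8269 genes tested, 51.2% passed, 25.3% upward and 25.9% downward, so the count for the 10 genes was near the background. None of the 10 reached the log2 fold change of 1.5 that the study required as well, against 9.6% of all genes. In high-Pi, *gna-2* and *gna-3* were again higher, by 1.45- and 1.43-fold, and no other gene of the 10 passed (2 of 10, against 35.4% of 8284 genes, 18.8% upward and 16.6% downward). With the study's fold threshold 0 of the 10 passed, against 9.14% of all genes. The 10 genes had a median log2 fold change of 0.14 in low-Pi, beside 0.02 over all genes, and of 0.18 in high-Pi, beside -0.01.

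With 1 library fewer, the high-Pi count of members was 0 without Δ*mus-52* high-Pi I, II or III, 0 without Δ*pac-3* high-Pi II and 4 without Δ*pac-3* high-Pi I. In those cases with 0 members, the estimates of *gna-2* (0.49 to 0.60) and *gna-3* (0.42 to 0.56) stayed near their values with all libraries, and the calls over all genes fell from 2935 to between 1582 and 2180. In low-Pi the count was 3 without Δ*mus-52* low-Pi I and 3 without Δ*pac-3* low-Pi III.

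The receptor genes were the lowest in counts of the 10. *gpr-1*, a receptor gene needed for normal beak and ostiole development in perithecia, had 8 to 76 counts per library. Its levels were 0.554, 0.568 and 0.963 CPM in Δ*mus-52* low-Pi and 0.921, 0.667 and 0.75 CPM in Δ*pac-3* low-Pi. In high-Pi they were 0.634, 0.309 and 0.512 CPM in Δ*mus-52* and 0.62, 1.26 and 1.06 CPM in Δ*pac-3*. The strains overlapped in both media. The log2 fold change in high-Pi was 0.98 (95% interval 0.08 to 1.89, adjusted p = 0.0854, edgeR), and without Δ*pac-3* high-Pi I it was 1.20 with an adjusted p of 0.0343 (edgeR). It also passed with the 12 libraries in 1 fit (0.99, adjusted p = 0.0379, edgeR) and with total counts as the only scaling (1.25, adjusted p = 0.0396, edgeR). In low-Pi the log2 fold change was 0.27 (95% interval -0.46 to 1.00, adjusted p = 0.515, edgeR), which leaves its sign and size unsettled.

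*gpr-4* encodes a receptor that couples to GNA-1 in carbon sensing. It was at 5.01, 5.32 and 5.32 CPM in Δ*mus-52* low-Pi and 3.96, 5.61 and 4.6 CPM in Δ*pac-3* low-Pi. The high-Pi values were 2.66, 4.09 and 4.12 CPM in Δ*mus-52* and 3.95, 3.5 and 5.59 CPM in Δ*pac-3*. The strains overlapped in both media, with log2 fold changes of -0.15 (95% interval -0.55 to 0.24) in low-Pi and 0.28 (-0.35 to 0.92) in high-Pi, the former of 0.030 when only total counts were used for scaling. In the annotation *gpr-4* overlaps NCU06311, whose reads its count could include, since the use of strand in counting is not stated.

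The Gα genes fell into a gene without a detected difference and a pair that rose. *gna-1*, whose product is needed for female fertility and normal hyphal growth, was at 365, 333 and 347 CPM in Δ*mus-52* low-Pi and 305, 347 and 346 CPM in Δ*pac-3* low-Pi. The high-Pi levels were 336, 340 and 357 CPM in Δ*mus-52* and 306, 269 and 365 CPM in Δ*pac-3*. The groups overlapped throughout. Its log2 fold change was -0.06 in low-Pi (95% interval -0.27 to 0.15) and -0.12 in high-Pi (-0.45 to 0.21), with adjusted p-values of 0.625 and 0.525 (edgeR), and both turned positive (0.12 and 0.13) with total counts as the only scaling.

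*gna-2* encodes the Gα subunit whose functions overlap those of the other members. It was at 75.1, 81.5 and 73 CPM in Δ*mus-52* low-Pi and 82.4, 105 and 105 CPM in Δ*pac-3* low-Pi, so that every Δ*pac-3* library was higher. With high-Pi the levels were 61.3, 66.6 and 67.5 CPM in Δ*mus-52* and 76.9, 87.4 and 117 CPM in Δ*pac-3*, again without overlap. By edgeR the rise was 0.36 ± 0.11 on the log2 scale in low-Pi (SE, n = 3 per strain; adjusted p = 0.0218) and 0.54 ± 0.17 in high-Pi (adjusted p = 0.0389). The low-Pi call was lost without Δ*mus-52* low-Pi I or III or Δ*pac-3* low-Pi II or III (log2 fold changes of 0.29 to 0.33, adjusted p between 0.0683 and 0.0878, edgeR). It was also lost with the 12 libraries in 1 fit (0.35, adjusted p = 0.0741, edgeR). The high-Pi call was lost without any 1 of the Δ*mus-52* high-Pi libraries or Δ*pac-3* high-Pi II (0.49 to 0.60, adjusted p between 0.0633 and 0.132, edgeR).

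*gna-3*, whose product acts in conidiation and sustains adenylyl cyclase, had the largest estimated rise of the 10 genes in low-Pi, close to that of *gng-1*. It was at 19, 24 and 25.3 CPM in Δ*mus-52* low-Pi and 29.4, 33.6 and 36.3 CPM in Δ*pac-3* low-Pi. High-Pi libraries had 19.5, 19.6 and 21.5 CPM in Δ*mus-52* and 26.7, 32.4 and 26.6 CPM in Δ*pac-3*. Each library labelled Δ*pac-3* lay above all 6 labelled Δ*mus-52*. Log2 fold changes (± SE) were 0.55 ± 0.13 in low-Pi, with an edgeR adjusted p of 0.00662, and 0.51 ± 0.14 in high-Pi, where it was 0.0238. Leaving out each library in turn gave no loss of the call in low-Pi. In high-Pi it was lost without any 1 of the Δ*mus-52* high-Pi libraries or Δ*pac-3* high-Pi II, with log2 fold changes of 0.42 to 0.56 and adjusted p between 0.0548 and 0.0959 (edgeR).

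Genes of the conidial marker list moved in both directions between the strains. In low-Pi 4 of its 7 genes rose and 2 fell, and in high-Pi 3 rose (edgeR, adjusted p below 0.05), beside 51.2% and 35.4% of all genes called in either direction. The conidial hydrophobin gene *eas* was at 81.5, 386 and 399 CPM in Δ*pac-3* low-Pi against 6.58, 7.17 and 3.65 CPM in Δ*mus-52* low-Pi, and at 25.9, 88.8 and 134 CPM in Δ*pac-3* high-Pi against 6.09, 6.56 and 3.04 CPM in Δ*mus-52* high-Pi. The clock-controlled gene *ccg-1* and the conidiation gene *con-13* fell in low-Pi, with log2 fold changes of -2.35 (adjusted p = 8.61e-06, edgeR) and -2.06 (0.000593). The part of conidial RNA in the strain results of the 10 genes was not tested.

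The genes of the Gβγ dimer rose together in low-Pi. *gnb-1*, the Gβ gene, was at 285, 290 and 279 CPM in Δ*mus-52* low-Pi and 370, 376 and 362 CPM in Δ*pac-3* low-Pi. *gng-1*, the Gγ gene, was at 192, 193 and 193 CPM in Δ*mus-52* low-Pi and 289, 265 and 280 CPM in Δ*pac-3* low-Pi. Neither gene overlapped between the strains. The log2 fold change ± SE was 0.38 ± 0.082 for *gnb-1*, with an edgeR adjusted p of 0.00332, and 0.54 ± 0.082 for *gng-1*, with one of 0.000396. Both calls were kept with each library left out in turn.

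In high-Pi the strains overlapped for both genes. *gnb-1* was at 304, 309 and 316 CPM in Δ*mus-52* and 302, 328 and 399 CPM in Δ*pac-3*. *gng-1* was at 220, 234 and 223 CPM in Δ*mus-52* and 251, 225 and 285 CPM in Δ*pac-3*. Library III of Δ*pac-3* high-Pi was the highest for each. The log2 fold changes were 0.16 (95% interval -0.15 to 0.48, adjusted p = 0.373, edgeR) and 0.19 (-0.11 to 0.48, adjusted p = 0.28, edgeR). With total counts as the only scaling they were 0.42 and 0.44 and passed (adjusted p = 0.0352 and 0.019, edgeR), but that scaling moved the median log2 fold change of all genes from -0.01 to 0.25.

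The Gβ and Gγ transcripts varied in parallel. Over the 12 libraries the highest value of *gnb-1* CPM divided by *gng-1* CPM was 1.25 times the lowest. The SD of its log2 value, 0.10, was the smallest of the 45 pairs that the 10 genes form. The next pair was *gna-1* and *cr-1*, with an SD of 0.15. Pearson correlations of log2 CPM were 0.91 for *gnb-1* and *gng-1* and 0.17 for *gna-1* and *cr-1*. A small SD alone therefore does not show parallel variation. Of the 45 pairs, *gna-2* and *ric8* had the correlation largest in size, -0.915. The 12 libraries share 4 groups, so these correlations also hold the differences between groups. Outside the 10 genes, *gnb-1* had a nearer profile in NCU06398 (0.967) and *gng-1* in NCU03278 (0.966). The ratios are not scaled by gene length and say nothing of which gene is more abundant.

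*ric8* was the only gene of the 10 that fell in low-Pi. It was at 29.5, 26.9 and 29.3 CPM in Δ*mus-52* low-Pi and 22.4, 24.2 and 21.5 CPM in Δ*pac-3* low-Pi. Its high-Pi levels were 34.4, 32 and 31.1 CPM in Δ*mus-52* and 27.1, 26.6 and 21.3 CPM in Δ*pac-3*. The libraries labelled Δ*pac-3* were the lower in each medium, without overlap. Its log2 fold change ± SE was -0.33 ± 0.097 in low-Pi, with an edgeR adjusted p of 0.0174. In high-Pi the value was -0.36 (95% interval -0.68 to -0.05) and missed the threshold (adjusted p = 0.0716, edgeR), but it passed with the 12 libraries in 1 fit (adjusted p = 0.0202, edgeR). The low-Pi call was lost without Δ*mus-52* low-Pi I (adjusted p = 0.0513, edgeR) or Δ*pac-3* low-Pi III (0.0705). It was also lost with total counts as the only scaling (-0.15, adjusted p = 0.285, edgeR), which moved the low-Pi median of all genes from 0.02 to 0.19.

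**Figure D2:**
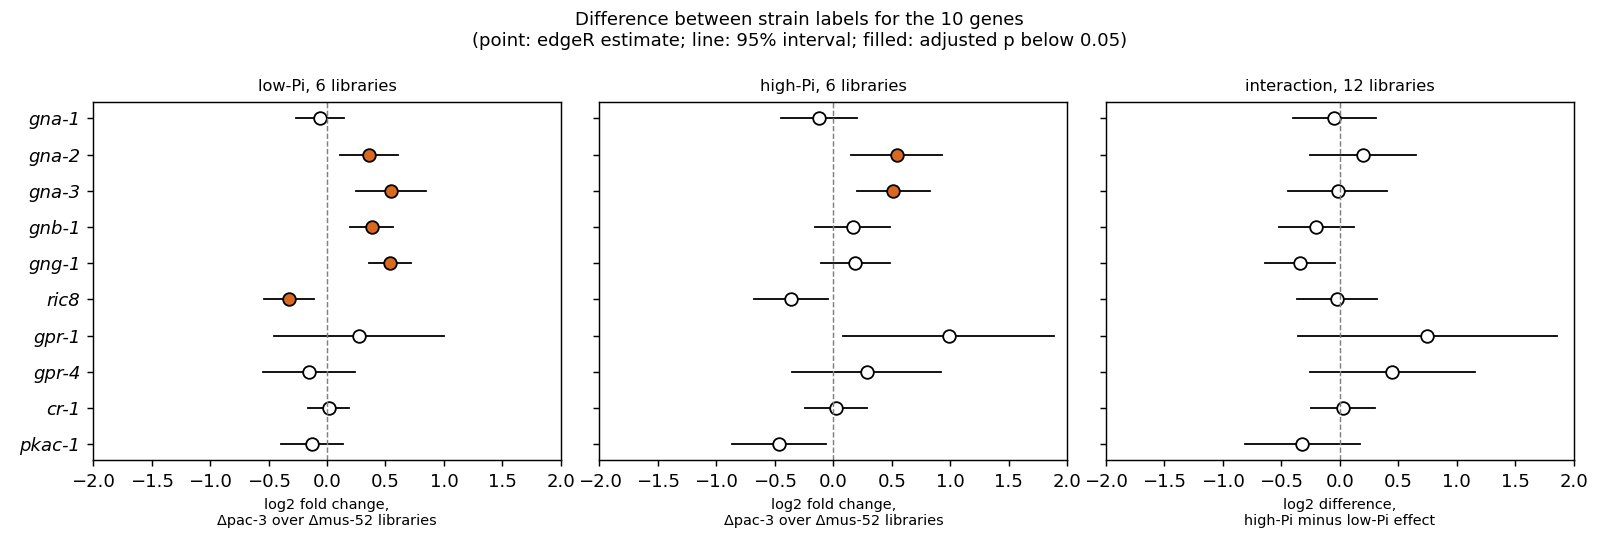
Log2 fold change of the 10 genes between the libraries labelled Δ*pac-3* and Δ*mus-52* (horizontal axes) in low-Pi, in high-Pi, and the difference of both as the interaction, with 95% intervals as lines. Filled points passed at an adjusted p below 0.05: 5 genes in low-Pi, 2 in high-Pi and 0 in the interaction.

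The adenylyl cyclase gene varied little between libraries. *cr-1*, named for the crisp colonies of its mutants, which lack the cyclase, was at 95.2, 96.5 and 94.2 CPM in Δ*mus-52* low-Pi and 93.3, 101 and 92.8 CPM in Δ*pac-3* low-Pi. In high-Pi it was at 110, 99.2 and 108 CPM in Δ*mus-52* and 113, 95.8 and 112 CPM in Δ*pac-3*. Its highest library was 1.21 times its lowest, the smallest such ratio of the 10 genes in TMM-scaled CPM. With total counts as the only scaling the ratio was 1.36, and that of *gna-1*, 1.32, was the smallest. The log2 fold change between the strains was 0.01 in low-Pi (95% interval -0.16 to 0.19) and 0.02 in high-Pi (-0.24 to 0.29), with adjusted p-values of 0.898 and 0.885 (edgeR).

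*pkac-1*, the kinase gene downstream of cyclic AMP, was at 71.8, 60.1 and 52.5 CPM in Δ*mus-52* low-Pi and 62.7, 51.7 and 53.2 CPM in Δ*pac-3* low-Pi, where the strains overlapped. In high-Pi it was at 90.3, 86 and 83.9 CPM in Δ*mus-52* and 79.2, 49.6 and 57.5 CPM in Δ*pac-3*. All 3 high-Pi libraries labelled Δ*pac-3* were below those labelled Δ*mus-52*, library I by the least. The log2 fold change in high-Pi was -0.47 (95% interval -0.87 to -0.06, adjusted p = 0.071, edgeR). Without Δ*pac-3* high-Pi I it was -0.68 with an adjusted p of 0.0051 (edgeR), and with the 12 libraries in 1 fit -0.46 with an adjusted p of 0.0329 (edgeR). In low-Pi it was -0.13 (95% interval -0.40 to 0.14), or 0.040 with total counts as the only scaling.

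Over the 10 genes, the libraries of the strains did not overlap for 5 in low-Pi and for 4 in high-Pi, where *ric8* and *pkac-1* joined *gna-2* and *gna-3*. Among all genes tested, 59.7% and 51.8% had no overlap. In low-Pi the median size of the log2 fold change was 0.30 for the 10 genes and 0.35 for all genes, and in high-Pi these medians were 0.32 and 0.39.

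The response to Pi was examined within each strain. In the libraries labelled Δ*mus-52*, *pkac-1* was 1.37-fold higher in high-Pi than in low-Pi and *gna-2* was 1.21-fold lower. The log2 fold changes ± SE were 0.45 ± 0.11 and -0.28 ± 0.087, with edgeR adjusted p-values of 0.0118 and 0.0355, and neither gene overlapped between the media. These were 2 of 10, where 32.6% of 8190 genes passed (14.4% upward and 18.1% downward), and none of the 10 reached a log2 fold change of 1.5, against 3.6% of all genes. Low- and high-Pi libraries did not overlap for 7 of the 10, beside 48.8% of all genes. Next was *gpr-4*, with a log2 fold change of -0.58 (95% interval -1.04 to -0.12, adjusted p = 0.053, edgeR), whose Δ*mus-52* libraries were all lower in high-Pi and which passed in DESeq2 (adjusted p = 0.036). The other 7 had log2 fold changes between -0.44 (*gpr-1*) and 0.19 (*gng-1*). The call of *gna-2* was lost without any 1 library other than Δ*mus-52* high-Pi III (adjusted p between 0.0606 and 0.148, edgeR). That of *pkac-1* reached an adjusted p of 0.05 without Δ*mus-52* low-Pi II (edgeR). The count of passing genes was 1 without Δ*mus-52* low-Pi I or III or high-Pi I or II, 0 without low-Pi II and 3 without high-Pi III. It was also 0 with the 12 libraries in 1 fit.

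In the libraries labelled Δ*pac-3*, none of the 10 genes passed between low- and high-Pi (edgeR). No gene of the 8348 tested did (0%), and DESeq2 called 21. An unadjusted p below 0.05 in edgeR was found for 413, about the share that this threshold passes where nothing differs. The variation between replicates that edgeR estimated over all genes (common BCV) was 0.208 here and 0.12 in the libraries labelled Δ*mus-52*. Among the 10 genes 0 had an unadjusted p below 0.05 in edgeR, and 0 were called by DESeq2. Without Δ*pac-3* high-Pi III edgeR called 31 genes, again 0 of the 10. Log2 fold changes lay between -0.21 (*gna-3*) and 0.31 (*gpr-1*), and the libraries overlapped for all 10, where 10.9% of all genes had no overlap. The 95% interval of *pkac-1* ran from -0.26 to 0.57 and that of *gna-2* from -0.49 to 0.37, so that each includes the value measured in the libraries labelled Δ*mus-52*.

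**Figure D3:**
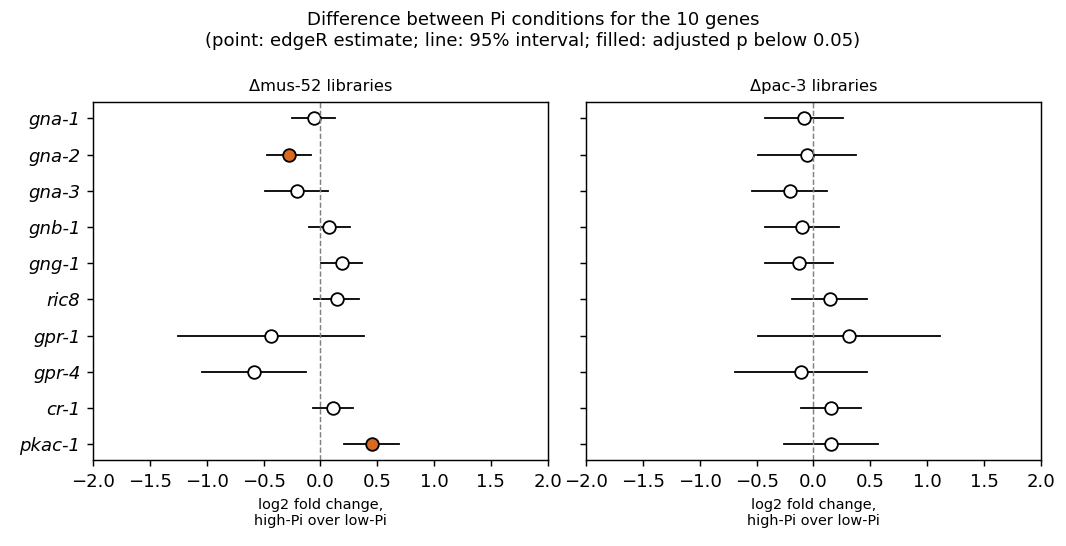
Log2 fold change of the 10 genes from low-Pi to high-Pi (horizontal axes) within the libraries labelled Δ*mus-52* and within those labelled Δ*pac-3*, with 95% intervals as lines. Filled points passed at an adjusted p below 0.05, *gna-2* and *pkac-1* in Δ*mus-52* and 0 genes in Δ*pac-3*.

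Whether the strain difference depended on Pi was tested as the interaction in the 12 libraries. None of the 10 genes passed at an adjusted p below 0.05, against 10.5% of 8465 genes, 7.53% upward and 2.94% downward (edgeR), and DESeq2 called 0 as well. The smallest adjusted p was that of *gng-1*, whose rise was smaller in high-Pi by a log2 difference of -0.34 (95% interval -0.64 to -0.04, adjusted p = 0.135, edgeR). No other gene of the 10 had an unadjusted p under the threshold. Without Δ*pac-3* high-Pi III its adjusted p was 0.0467 (edgeR), the 1 case in which the count was not 0. The low-Pi rise of the Gβγ genes and the Pi response of *pkac-1* and *gna-2* in Δ*mus-52* are thus not shown to differ from the other medium or strain. *gpr-1* had the largest estimate, 0.75, with an interval from -0.36 to 1.85.

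Further genes of the pathway were taken from a list of 11, namely the receptors *gpr-2*, *gpr-3*, *gpr-5* and *gpr-6*, the opsin gene *nop-1*, the pheromone receptors *pre-1* and *pre-2*, *cpc-2*, *mcb*, *pkac-2* and *acon-2*. In low-Pi 3 of the 11 rose and 3 fell between the strains, and in high-Pi 3 rose and 1 fell (edgeR, adjusted p below 0.05). These counts of 6 and 4 were near the background of 51.2% and 35.4% of all genes. The median log2 fold changes were -0.16 and 0.32. With the study's fold threshold 2 passed in each medium, *gpr-5* and *nop-1* in low-Pi (9.6% of all genes) and *nop-1* and *pre-2* in high-Pi (9.14%).

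Apart from *acon-2*, the genes on this list that passed between the strains encode receptors or the opsin. Such genes make up most of the list, and the receptor genes *gpr-2* and *pre-1* passed in neither medium. The predicted receptor gene *gpr-5* was at 25.6, 25.5 and 22.1 CPM in Δ*mus-52* low-Pi and 6.11, 5.87 and 6.78 CPM in Δ*pac-3* low-Pi, a log2 fold change ± SE of -1.96 ± 0.12 with an edgeR adjusted p of 8.45e-07. It overlaps NCU00299 in the annotation. *gpr-6*, another predicted receptor gene, was at 246, 205 and 243 CPM against 99.3, 80.9 and 84.1 CPM, a log2 fold change of -1.39 (adjusted p = 4.5e-06, edgeR). In high-Pi *gpr-5* had a log2 fold change of -1.20 (adjusted p = 0.00316, edgeR) and *gpr-6* of -0.32 (adjusted p = 0.356, edgeR).

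The genes that rose on this list rose in both media. *nop-1* was 2.84-fold higher in low-Pi (adjusted p = 7.93e-06, edgeR) and 2.92-fold higher in high-Pi (0.0149). *pre-2*, the receptor gene for a mating pheromone, had log2 fold changes of 1.39 (adjusted p = 3.56e-05, edgeR) and 3.37 (0.0115), and *gpr-3* had 1.08 (0.00105) and 0.88 (0.0242). In Δ*pac-3* high-Pi, library I stood apart for *nop-1* (6.36, against 15.4 and 17.9 CPM) and *pre-2* (2.12, against 14.8 and 15 CPM). Without it the high-Pi log2 fold changes were 1.88 and 3.84. The high-Pi call of *nop-1* was lost without Δ*mus-52* high-Pi I or II or Δ*pac-3* high-Pi II (adjusted p between 0.0501 and 0.0604, edgeR), and that of *pre-2* without Δ*mus-52* high-Pi II (0.0501). The call of *gpr-3* in high-Pi was lost without any 1 of the Δ*mus-52* libraries (adjusted p between 0.0617 and 0.0792, edgeR).

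The gene *acon-2*, named for its aconidial mutants, fell in low-Pi with a log2 fold change of -0.63 (adjusted p = 0.0252, edgeR). Its levels there were 32.5, 59.7 and 58.1 CPM in Δ*pac-3* and 69.5, 80.5 and 82 CPM in Δ*mus-52*, and the call was lost without Δ*mus-52* low-Pi II (adjusted p = 0.078, edgeR) or III (0.0755). It was also lost with total counts as the only scaling (-0.43, adjusted p = 0.113, edgeR) and with the 12 libraries in 1 fit (0.075). Without Δ*pac-3* low-Pi I the log2 fold change of *acon-2* was -0.39. The genes *mcb*, which encodes the regulatory subunit of protein kinase A, *pkac-2*, a further catalytic subunit gene, and *cpc-2*, a Gβ-like protein gene, passed in neither medium.

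In the libraries labelled Δ*mus-52*, 4 of the 11 fell from low- to high-Pi and 0 rose, beside 18.1% and 14.4% of all genes, with a median log2 fold change of -0.30. *pre-2* had the largest fall, with a log2 fold change of -2.20 (adjusted p = 0.000533, edgeR), from 5.36, 4.58 and 4.06 CPM to 1.13, 0.502 and 1.41 CPM. *acon-2* had -1.12 (adjusted p = 0.000118, edgeR), *gpr-6* -0.95 (0.00114) and *gpr-5* -0.52 (0.0201). The call of *gpr-5* was lost without Δ*mus-52* low-Pi I (adjusted p = 0.0527, edgeR), low-Pi II (0.0717) or high-Pi II (0.0681). In the libraries labelled Δ*pac-3* 0 of the 11 passed in edgeR or DESeq2, and their median was 0.02. In the interaction 2 of the 11 passed, *gpr-5* and *gpr-6*, both upward, beside 7.53% of all genes upward and 2.94% downward, and the count was 0 without any 1 library other than Δ*mus-52* high-Pi I (2), Δ*pac-3* high-Pi I (4) or Δ*pac-3* high-Pi III (3).

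**Figure D4:**
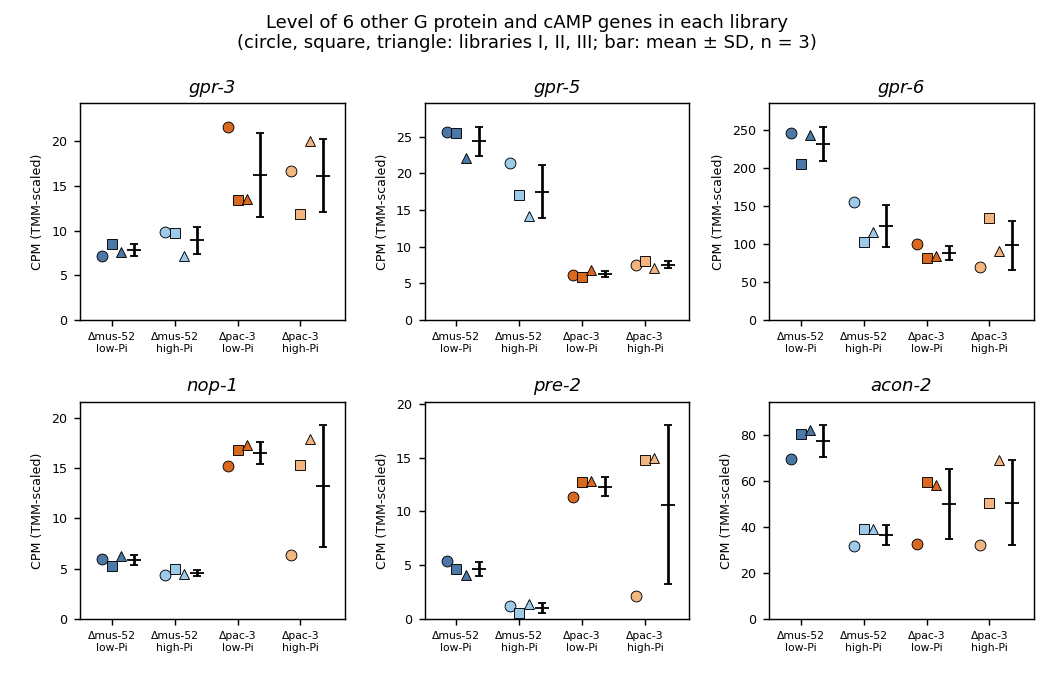
Level (vertical axes, TMM-scaled CPM, starting at 0) of the 6 other pathway genes that passed between the strains in at least 1 medium, by group. Symbols mark libraries I, II and III and bars the mean ± SD (n = 3). *gpr-5* was at 5.87 to 8.1 CPM in the libraries labelled Δ*pac-3* and at 14.1 to 25.6 CPM in those labelled Δ*mus-52*.

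For each of the 10 genes, the gene with the most similar profile over the 12 libraries was sought among 8464 others. Pearson correlations of log2 CPM with that gene ran from 0.876 for *cr-1* to 0.981 for *ric8*, whose nearest profile was that of NCU02408. None of the 10 nearest genes was another member of the set or carries a symbol in the annotation. The 12 libraries share their 4 groups, so these values are a description of profiles shaped by group differences.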

How the data were processed

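Raw read counts per gene and library were deposited by the authors, from paired-end reads that had been quality-trimmed and aligned by Bowtie2 (version 2.3.4 in the submitters' processing notes) to the NC12 assembly. Which tool counted the reads and whether strand was used are not given in the sources used here. The count total of every library is well above the number of mapped reads that the paper lists for it. Whether both mates of a read pair were counted is not stated. The authors' tables of the strain comparisons (means, fold changes and p-values) were not used.

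Tests on the counts used R 4.3.3 with edgeR 4.0.16 (limma 3.58.1). The 6 libraries of a comparison (12 for the interaction) were fitted over all genes, with filterByExpr (minimum count 10, minimum total 15), TMM factors and the quasi-likelihood F test. All 10 members passed the filter in each comparison. The standard error is the log2 fold change divided by the square root of F. Alternatives were DESeq2 1.42.0, other scaling, no filter, other thresholds, a block by replicate number, a joint fit and each library left out in turn. The procedure was run on simulated counts whose changes were larger than any called for the 10 genes. That run does not show how well changes of their size are found. Figures were drawn with matplotlib 3.10.9.

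The 10 genes and the lists were chosen with earlier results of these data known. Named genes were the members, *pac-3*, *mus-52*, the list of further pathway genes and the gene nearest in profile to each member. Symbols came from the NC12 annotation table, in which 9729 of 9730 gene IDs were found. Coordinates served only to find overlapping genes. Gene lengths and sequences were not used here, so differences in counts or level between genes are not read as abundance. Total counts were 20240314 to 82211503 per library. The intervals are confidence intervals of the estimated log2 fold change. They rest on the variation between replicate libraries and do not describe the spread of single libraries.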

Additional observations from a re-analysis of the deposited data

Results flagged for a closer look

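The strain difference of 2 further pathway genes differed between the media by the interaction test over the 12 libraries. For *gpr-6* the log2 fold change was higher in high-Pi than in low-Pi by 1.08 (adjusted p = 0.0396, edgeR), and for *gpr-5* by 0.77 (adjusted p = 0.0386, edgeR). Within a medium, *gpr-5* had a strain effect of -1.96 with low-Pi and of -1.20 with high-Pi. *gpr-6* had one of -1.39 with low-Pi, and its high-Pi value of -0.32 did not pass. With each library left out in turn, the calls were lost in 9 of 12 cases for each gene, and were kept without Δ*mus-52* high-Pi I, Δ*pac-3* high-Pi I or Δ*pac-3* high-Pi III. Over all 12 cases the values ranged from 0.81 to 1.28 for *gpr-6* and from 0.64 to 0.92 for *gpr-5*. None of the 10 member genes passed this test, which does not show that they had no such difference.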

How the results depend on the processing

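Of 340 values of the 10 genes under alternatives other than leaving out a library, 314 kept their direction and side of the threshold. The 340 include the threshold of 0.01, which reuses the same estimates and cannot turn a sign. Most of the 50 results behind them had not passed, so the tally says little of the calls. An adjusted p below 0.01 left 3 member genes between the strains in low-Pi, 0 between them in high-Pi and 0 for Pi in Δ*mus-52*, and the study's fold threshold left 0 in each. In high-Pi the count was 5 with total counts only and 5 with the 12 libraries in 1 fit, where the Pi count in Δ*mus-52* was 0. For the list of 11, the fold threshold left 2 in either medium between the strains, 1 for Pi in Δ*mus-52* and 0 in the interaction. An adjusted p below 0.01 left 1 in high-Pi and 0 in the interaction, and no filter left 1 in the interaction. With total counts as the only scaling the sign turned in low-Pi for *gna-1* (0.12), *gpr-4* (0.030) and *pkac-1* (0.040), in high-Pi for *gna-1* (0.13) and in the interaction for *gna-1* (0.0099), *gna-3* (0.044) and *ric8* (0.047). None of these passed in either scaling.

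With a library left out, the count of members ranged from 3 to 5 between the strains in low-Pi, 0 to 4 between them in high-Pi, 0 to 3 for Pi in Δ*mus-52* and 0 to 1 in the interaction. For the list of 11 it ranged from 5 to 7, 1 to 5, 3 to 5 and 0 to 4. Estimates near 0 turned sign. In the strain effect of *cr-1* they ranged from -0.030 to 0.028 in low-Pi and -0.027 to 0.11 in high-Pi. In the interaction they ranged from -0.019 to 0.12 for *cr-1*, -0.17 to 0.072 for *gna-1*, -0.12 to 0.10 for *gna-3* and -0.088 to 0.082 for *ric8*. For Pi in Δ*pac-3* they ranged from -0.21 to 0.011 for *gna-1*, -0.25 to 0.071 for *gna-2*, -0.33 to 0.034 for *gpr-4* and -0.055 to 0.29 for *pkac-1*.

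Same-numbered libraries of different groups had correlations of their deviations from -0.14 to 0.32 (median 0.05). For differently numbered libraries these ran from -0.29 to 0.19 (median -0.04). The ranges overlap, and these values do not settle whether the numbers pair the samples. With the replicate block the members passing were 5 and 3 between the strains in low- and high-Pi, 3 for Pi in Δ*mus-52*, 0 for Pi in Δ*pac-3* and 0 in the interaction. The block added *pkac-1* between the strains in high-Pi (-0.49, adjusted p = 0.0445, edgeR) and *gpr-4* for Pi in Δ*mus-52* (-0.61, adjusted p = 0.021, edgeR). The causes of these changes were not tested. Over all genes, DESeq2 called 1337 in the interaction against 886 in edgeR, and the 12-library fit called 1654 for Pi in Δ*mus-52* against 2666. Leaving out a library gave 1582 to 3200 between the strains in high-Pi, against 2935, and 392 to 1585 in the interaction. Low counts limit *gpr-1* most.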
